A study of Mus musculus with 12 samples.

Results

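The immediate early transcription factors examined here are *Fos*, *Fosb*, *Jun*, *Junb*, *Egr1*, *Ier2*, *Atf3*, *Nr4a1*, *Klf4* and *Klf6*, taken by gene symbol from the tables of 15838 genes measured in mouse corneal endothelial cells (CEC). Of these 10 genes, 9 have a row. *Atf3* (ENSMUSG00000026628, chromosome 1 from 191170296 to 191218039 on the minus strand of GRCm38) has none, and no level is given for it. RNA came from the Descemet membrane, the basement membrane that carries the CEC, peeled from C57BL/6 mice at 10 weeks of age, and was sequenced in 12 libraries, 3 from each of the groups *Slc4a11*-/- (KO) male, KO female, *Slc4a11*+/+ (WT) male and WT female. The KO mice carry a targeted deletion of internal exons of *Slc4a11*, the gene mutated in congenital hereditary endothelial dystrophy (CHED), through the germline, and the WT mice were their littermates. No treatment is named for either genotype. The paper describes membranes processed as pairs from a mouse, whereas the sample records describe pooled membranes, so the number of mice behind a library is uncertain.

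The 3 tables give the same measurement once per gene, the authors' mean level over the libraries in log2 CPM, read counts scaled to a fixed library total. No value of a single library goes with it, so the levels below carry no SD, depth is unknown, and whether neighbours in an order differ beyond the spread between libraries cannot be said. The mean pools both genotypes and both sexes, and the differences of these genes between KO and WT or between the sexes are not analysed here. Handling at dissection may add to the levels of immediate early genes, and its part in them was not tested.

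Immediate early genes are transcribed within minutes of a stimulus such as a growth factor, stretch, injury or depolarization, without new protein synthesis, and their mRNAs and proteins are soon degraded. MAP kinases and cAMP signalling act on factors already bound at their promoters, SRF with its ternary complex partners and CREB or its relatives. Many of the products are transcription factors themselves: FOS and JUN proteins pair through leucine zippers as AP-1, EGR1, KLF4 and KLF6 bind GC-rich DNA through zinc fingers, NR4A1 is an orphan nuclear receptor, ATF3 is a stress-induced leucine zipper protein, and IER2 is a small nuclear protein. In the cornea some immediate early genes are known for their response to wounding.

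The promoters are shown because some of the inputs of these genes are read there, and sites outside the windows were not scanned. RefSeq promoter windows of GRCm38.p6, 250 bases before to 50 bases after the annotated start of a gene, were matched by symbol for 8 of the 10 genes, *Atf3* among them. *Egr1* and *Ier2* were not matched. The cAMP response element (CRE), the palindrome TGACGTCA bound by CREB and ATF proteins, was in 0 of the 8 windows, in 1.79% of all 32851 windows and in 2.89% of those of genes in the tables. Its core TGACG, searched on both strands and contained in the full CRE, was in 6 of the 8: *Fos*, *Fosb*, *Junb*, *Atf3*, *Nr4a1* and *Klf4*. All windows held it in 20.8% of cases, and the 13997 windows of genes in the tables in 29.5%. The other 2 windows, of *Jun* and *Klf6*, each held TGACATCA, a form of the CRE with another base at its centre, which was looked for after the sequences had been read and is in 3.62% of all windows and 1.91% of those of genes in the tables. A core or this variant was in all 8 windows scanned, in 24.0% of all windows and in 30.9% of those of genes in the tables. Since the variant was picked from the last 2 windows themselves, the count of 8 is a description only. In the stretches printed here, 5′ to 3′ on the strand of the gene, capitals mark the core on either strand (CGTCA when read from the other strand), the variant and the TATA box, and positions count from the RefSeq start.

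Fos: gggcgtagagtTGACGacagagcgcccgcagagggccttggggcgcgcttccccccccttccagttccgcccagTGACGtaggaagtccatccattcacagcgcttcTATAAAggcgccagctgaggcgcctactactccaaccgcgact
Fosb: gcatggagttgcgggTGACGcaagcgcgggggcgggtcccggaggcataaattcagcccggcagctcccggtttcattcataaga
Jun: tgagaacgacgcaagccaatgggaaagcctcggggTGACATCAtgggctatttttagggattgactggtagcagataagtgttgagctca
Junb: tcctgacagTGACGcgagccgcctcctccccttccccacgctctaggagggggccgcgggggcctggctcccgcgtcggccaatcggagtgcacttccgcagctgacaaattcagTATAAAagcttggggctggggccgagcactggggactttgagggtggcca
Atf3: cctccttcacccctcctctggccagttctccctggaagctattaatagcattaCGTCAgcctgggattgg
Nr4a1: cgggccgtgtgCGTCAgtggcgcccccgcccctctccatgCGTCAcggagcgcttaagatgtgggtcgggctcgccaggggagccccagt
Klf4: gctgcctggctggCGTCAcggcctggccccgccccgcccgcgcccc
Klf6: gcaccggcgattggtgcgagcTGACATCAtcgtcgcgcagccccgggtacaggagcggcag

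The *Fos* stretch (chr12:85473750-85473899, plus strand) runs from -140 to 10 and holds a core from -66 to -62, another from -129 to -125, and a TATA box from -33 to -28. *Fosb* (chr7:19310036-19310120, minus strand) has its core at nearly the same distance, from -60 to -56. The *Jun* variant (in chr4:95052213-95052302, minus strand) lies from -45 to -38 and that of *Klf6* (in chr13:5861349-5861409, plus strand) from -119 to -112. *Nr4a1* (chr15:101266766-101266855, plus strand) is the window with the most cores, 4 in all, of which those from -69 to -65 and from -40 to -36 fall in the printed stretch. In *Atf3* (chr1:191183324-191183393, minus strand) the core ends 3 bases before the start. In *Klf4* (chr4:55532675-55532720, minus strand) it is far from the start, from -232 to -228. The core of *Junb* (chr8:84978699-84978863, minus strand) lies from -106 to -102, and its TATA box from 1 to 6, after the RefSeq start. The first GENCODE start of *Junb* lies 30 bases downstream, and counted from there the same TATA box sits from -30 to -25. For *Nr4a1* and *Atf3* the first GENCODE start lies 12577 and 34706 bases upstream of the RefSeq start, so their windows show a later start.

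**Figure D1:**
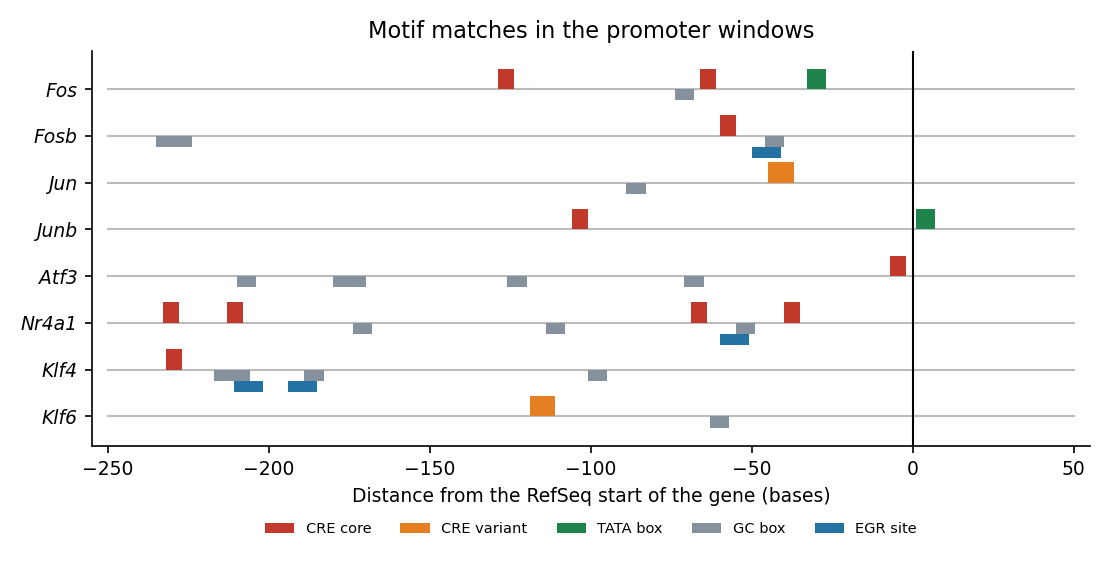
Matches to the motifs in the RefSeq promoter windows of 8 immediate early factors; the horizontal axis is the distance from the start in bases, each grey line is a window, and coloured boxes are matches on either strand (GC box and EGR site drawn under the line). *Fos*, *Fosb*, *Junb*, *Atf3*, *Nr4a1* and *Klf4* hold a CRE core, *Jun* and *Klf6* the CRE variant, and *Fos* and *Junb* a TATA box.

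The TATA box TATAAA was in 2 of the 8 windows, against 13.6% of all windows and 7.37% of those of genes in the tables. The GC box GGGCGG, a site for SP and KLF proteins, was in 7 of the 8, with *Junb* the exception, against 35.7% of all windows and 60.6% of those of genes in the tables. The EGR site GCGNGGGCG, whose letters can share bases with a GC box, was in *Fosb*, *Nr4a1* and *Klf4*, 3 of the 8, against 5.55% of all windows and 10.3% of those of genes in the tables. The AP-1 site TGANTCA and the CArG box, the core of the serum response element that SRF binds, had no match in these 8 windows. They were in 7.81% and 1.63% of all windows and in 5.15% and 1.28% of those of genes in the tables, and no match says only that these letters are not within the window. The GC content of the 8 windows ran from 58.7% for *Fos* to 74.3% for *Klf4*, with a median of 65.0% against 52.7% for all windows. The number of CpG dinucleotides had a median of 24 against 7 for all windows. By this number the 8 windows ran from the 65.4th percentile of all windows (*Jun*) to the 96.1th (*Klf4*). GC content and CpG number were not compared with the windows of genes in the tables alone. The part of base composition in the motif counts was not tested.

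Levels of the members covered a 63.1-fold range, from *Jun* at 5.55 log2 CPM (46.7 CPM when the log2 mean is turned back) to *Fosb* at -0.43 (0.740 CPM). The median of the 9 levels was 3.15 log2 CPM, against 3.76 for all 15838 genes. Of the 9, 1 lay above the median of all genes, 5 between the lower quartile and the median, and 3 under the lower quartile of 1.45 log2 CPM. *Jun* was the member above the median, at the 76.5th percentile, meaning that 76.5% of the genes had a lower mean. Genes had been left out of the tables before deposit by a rule not given in the sources used here, so these counts describe the 9 genes with a row, not the 10.

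**Figure D2:**
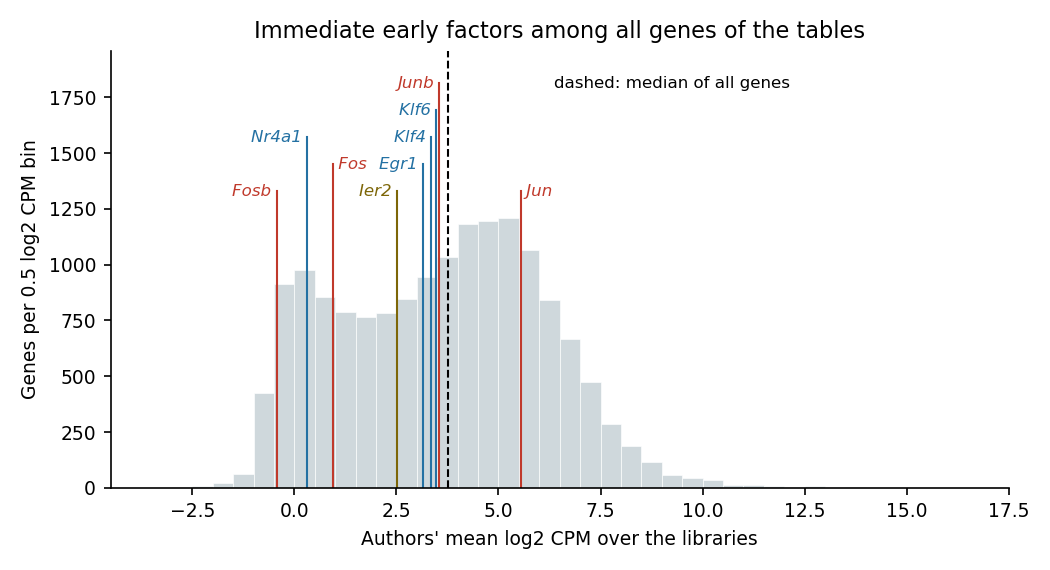
Histogram of the authors' mean log2 CPM for the 15838 genes of the tables (grey, genes per bin), with a vertical line for each of the 9 immediate early factors (red AP-1 genes, blue zinc finger and nuclear receptor genes, brown *Ier2*) and a dashed line at the median of all genes, 3.76. *Jun* stands right of the median, and *Junb*, *Klf6*, *Klf4* and *Egr1* lie close to its left. *Ier2* lies further left, and *Fos*, *Nr4a1* and *Fosb* lie far left.

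Among the AP-1 subunits, *Jun* (ENSMUSG00000052684) lies on chromosome 4 from 95049034 to 95052222 on the minus strand and is a single exon of 3189 bases. JUN can pair with itself or with a FOS protein. *Junb* (ENSMUSG00000052837, chromosome 8 from 84974484 to 84978718, minus strand) encodes a JUN relative that is a weaker activator at many sites, and had a level of 3.55 log2 CPM (11.7 CPM), at the 47.2th percentile. *Fos* (ENSMUSG00000021250, chromosome 12 from 85473890 to 85477273, plus strand), whose product binds DNA only when paired with a JUN protein, had 0.94 log2 CPM (1.92 CPM), in rank 12676 of 15838. *Fosb* (ENSMUSG00000003545, chromosome 7 from 19302696 to 19310051, minus strand) was at the 3.84th percentile. Both JUN genes thus had higher levels than both FOS genes.

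Per kilobase of exon, the scale on which genes of different length can be set side by side, *Jun* was at 3.87 log2 CPM per kb and *Junb* at 2.35, a difference of 1.52. *Fos* was at -0.29 and *Fosb* at -3.08, a difference of 2.79. The *Jun* level per kb was 17.9 times that of *Fos* and 124 times that of *Fosb*. With depth unknown, the reads behind the low *Fos* and *Fosb* means (1.92 and 0.740 CPM) cannot be given, so both ratios are uncertain. With the length of the longest transcript in place of all exons these ratios were 16.1 and 74.9, and the difference between *Fos* and *Fosb* was 2.22 on the log2 scale. On this scale the relatives *Jund* (3.89 log2 CPM per kb), which encodes the JUN protein least dependent on stimulation, and *Fosl2* (2.18), which encodes the FOS relative FRA2, were named after their values had been seen. *Jund* and *Jun* were at nearly the same level per kb, and the *Fosl2* level per kb was above those of *Fos* and *Fosb*. The FOS relative *Fosl1* has no row in the tables.

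Counting at 2 of these loci can be touched by neighbours on the other strand. The single exon of *Jun* shares 232 exonic bases with the antisense gene *Junos*, which has a mean level of 0.23 log2 CPM. *Junb* shares 173 exonic bases with *Prdx2*, a peroxiredoxin gene with a mean level of 5.94 log2 CPM. The library kit keeps strand, but the counter and its strand setting are not given in the sources used here, so reads in the shared bases cannot be assigned with certainty. No exonic overlap with another gene was annotated for the other 7.

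Of the zinc finger factors, *Klf6* (ENSMUSG00000000078, chromosome 13 from 5861482 to 5870394, plus strand), a growth-restraining KLF induced by injury, had 3.47 log2 CPM (11.1 CPM). *Klf4* (ENSMUSG00000003032, chromosome 4 from 55527143 to 55532466, minus strand), a KLF of epithelial and endothelial barrier programmes, had 3.35 (10.2 CPM). *Egr1* (ENSMUSG00000038418, chromosome 18 from 34859823 to 34864984, plus strand), a target of SRF and MAP kinase signalling, had 3.15 (8.86 CPM). These 3 and *Junb* lie between the 42.4th and the 47.2th percentile. *Ier2* (ENSMUSG00000053560, chromosome 8 from 84661331 to 84662852, minus strand) followed with 2.52 log2 CPM (5.74 CPM), at the 35.6th percentile. *Nr4a1* (ENSMUSG00000023034, chromosome 15 from 101254269 to 101274795, plus strand) had 0.31 log2 CPM (1.24 CPM), at the 12.8th percentile. In all, 8 of the 9 had a mean of at least 1 CPM, as did 91.0% of all genes, and 4 of at least 10 CPM, as did 55.6% of all genes.

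The length of the exons moved *Ier2* most. With 1522 exonic bases it is the shortest of the 9, and it went from place 6 by level to place 3 per kb, at 1.92 log2 CPM per kb. *Klf4* was at 1.74 log2 CPM per kb, *Klf6* at 1.33, *Egr1* at 0.98 and *Nr4a1* at -1.51. The first 2 places (*Jun*, *Junb*) and the last 3 (*Fos*, *Nr4a1*, *Fosb*) were held on both scales. Per kb, 3 of the 9 (*Jun*, *Junb* and *Ier2*) were above the median of all genes, 1.79 log2 CPM per kb. The exonic length of *Fosb*, 6243 bases over all its transcripts, exceeds the 3782 bases of its longest transcript, and by that shorter length *Fosb* was at -2.35 log2 CPM per kb, still the lowest of the 9.

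**Figure D3:**
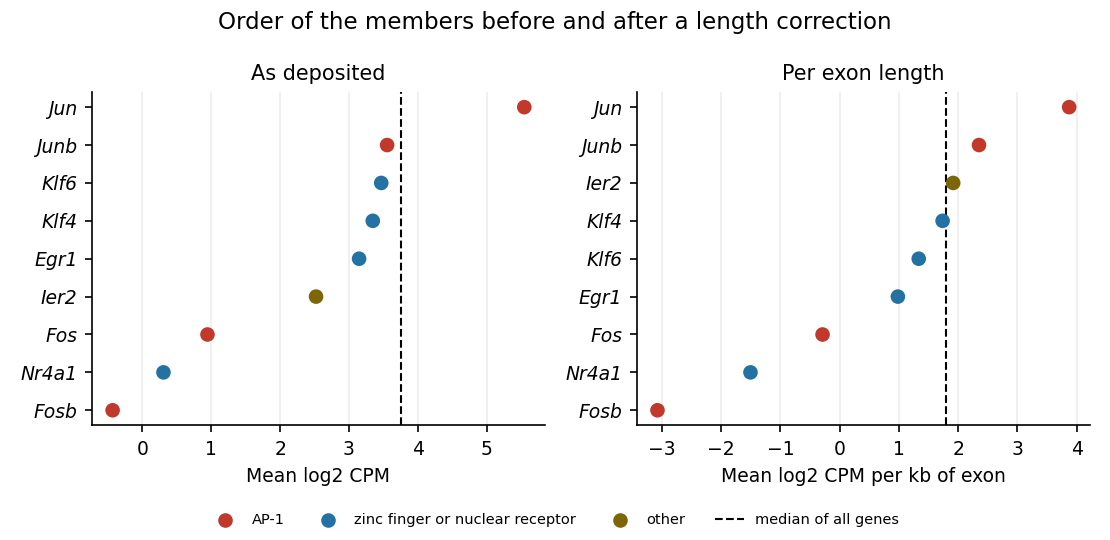
Mean log2 CPM of the 9 members (left) and mean log2 CPM per kb of exon (right), each sorted, 1 point per gene with no error because the tables give 1 pooled mean; the dashed lines are the medians of all genes, 3.76 and 1.79. *Jun* is highest and *Fosb* lowest in both panels, and *Ier2* moves from place 6 to place 3.

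The members share a compact gene structure that their choice by name did not use. Their median span was 5162 bases, against 25448 bases for 12956 protein coding genes of the tables. Spans under 10000 bases were found for 8 of the 9, *Nr4a1* with 20527 bases being the exception, and for 22.5% of the protein coding genes. The *Nr4a1* span is counted from its first GENCODE start, which lies 12577 bases upstream of its RefSeq start. *Jun*, *Junb* and *Ier2* have 1 exon in their longest coding transcript, as do 2.55% of the protein coding genes, and the median was 4 exons against 9. Exonic length set the members less apart, with a median of 3189 bases against 4617.

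AU-rich elements in the 3′ untranslated region recruit proteins such as ZFP36 that shorten the life of an mRNA, and their core is the pentamer ATTTA. In the longest coding transcript, 8 of the 9 members had at least 1 pentamer, as did 69.8% of 12897 protein coding genes of the tables. *Nr4a1* had 3 in 543 bases (5.52 per kb), *Fos* 4 in 815 (4.91 per kb) and *Junb* 2 in 485 (4.12 per kb). These densities lie at the 95.4th, 93.8th and 90.4th percentile. *Jun* followed with 3.24 per kb, *Klf6* with 2.25 and *Egr1* with 1.64, all above the median of 1.29 per kb. *Klf4* (1.02) and *Fosb* (0.466) were under it, and *Ier2* had 0 in 755 bases. The longer element TTATTTATT was found in *Fos* alone among the 9, and in 7.96% of the protein coding genes. *Zfp36* itself had a level of 3.33 log2 CPM. Per kb it was at 1.54 log2 CPM per kb, between *Klf4* (1.74) and *Egr1* (0.98). *Zfp36* was named after its value had been seen.

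**Figure D4:**
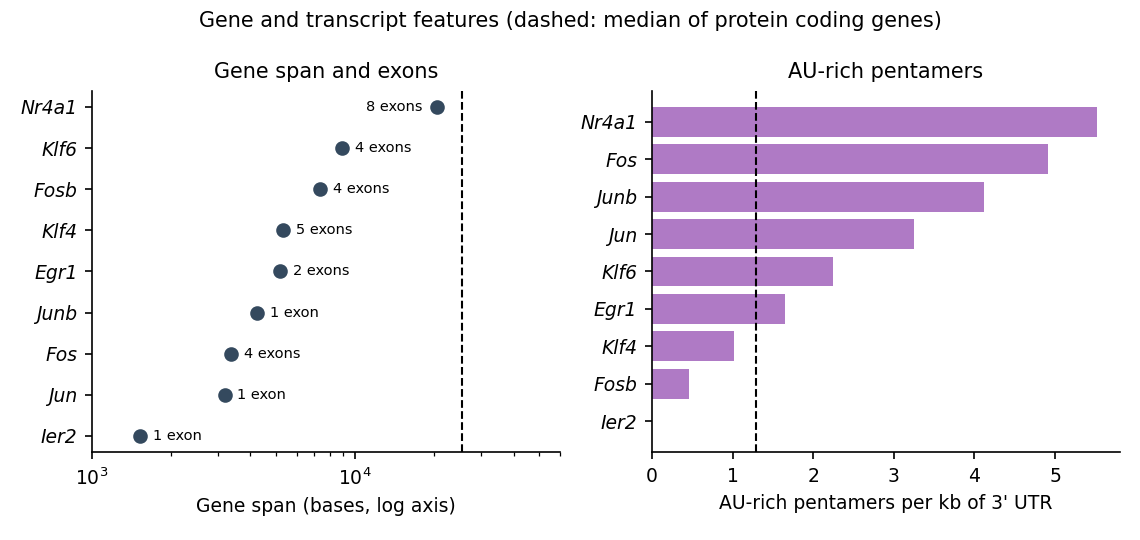
Span of each member gene in bases on a log axis with the exon number of its longest coding transcript (left), and AU-rich pentamers per kb of 3′ UTR (right, bars from 0). Dashed lines are the medians of the protein coding genes, 25448 bases and 1.29 per kb; all 9 spans lie left of the line, and 6 of 9 pentamer densities exceed it.

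A list of 36 other immediate early genes, of which 32 have a row, had a median of 3.56 log2 CPM, with 14 above and 18 below the median of all genes and 8 under the lower quartile. *Egr4*, *Fosl1*, *Dusp2* and *Npas4* have no row. The highest levels were those of *Ccn1* (9.01 log2 CPM), which encodes the secreted matricellular protein CYR61, of *Plk2* (7.44), a polo-like kinase gene, and of *Ccn2* (7.32), which encodes connective tissue growth factor. Per kb these were at 7.99, 5.28 and 5.81 log2 CPM per kb, each above *Jun*. The lowest were *Egr3* (-1.40 log2 CPM) and *Nr4a3* (-0.84), relatives of *Egr1* and *Nr4a1*. The list as a whole had a median of 2.17 log2 CPM per kb, the 9 members one of 1.33, and all genes 1.79.

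In a list of KLF and NR4A genes, all 14 had a row, with a median of 3.01 log2 CPM, 5 above and 9 below the median of all genes. *Klf3* (6.57 log2 CPM), *Klf9* (5.70), a target of glucocorticoids, and *Klf15* (5.52) were the highest. Per kb they were at 3.08, 3.44 and 4.04 log2 CPM per kb, against 1.74 for *Klf4* and 1.33 for *Klf6*. *Klf8* (0.20 log2 CPM) and *Nr4a3* were the lowest. *Nr4a1* at -1.51 log2 CPM per kb stood beside *Nr4a2* at -1.31 and above *Nr4a3* at -3.42, so the 3 NR4A genes were all low. *Nr4a2* was named after its value had been seen.

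Leucine zipper genes whose products can pair with the FOS, JUN or ATF3 proteins formed a list of 15, of which 12 had a row. Their median was 4.96 log2 CPM, with 8 above and 4 below the median of all genes. *Atf4* (6.58 log2 CPM), the effector of the integrated stress response and an activator of *Atf3*, *Jdp2* (6.26), a partner of JUN that represses AP-1 targets, and *Atf2* (5.75), a partner of JUN at CRE-like sites, were the highest. Per kb, *Atf4* was at 5.35 log2 CPM per kb, *Jdp2* at 5.16 and *Atf2* at 2.72, beside *Jun* at 3.87. *Cebpb* (1.61 log2 CPM), which encodes a C/EBP factor, was the lowest with a row, and *Batf*, *Batf3* and *Fosl1* have none.

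The genes upstream of the members, 20 encoding SRF, its cofactors, CREB factors and kinases of the MAP kinase cascades, all had a row. Their median was 5.41 log2 CPM, with 18 above and 2 below the median of all genes. *Map2k1* (7.13 log2 CPM) and *Map2k2* (7.01), which encode MAP kinase kinases, were the highest. *Crem* (2.24), itself inducible by cAMP, and *Elk1* (3.45), a ternary complex factor, were the lowest. Per kb the median of this list was 2.91 log2 CPM per kb, against 1.33 for the 9 members.

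**Figure D5:**
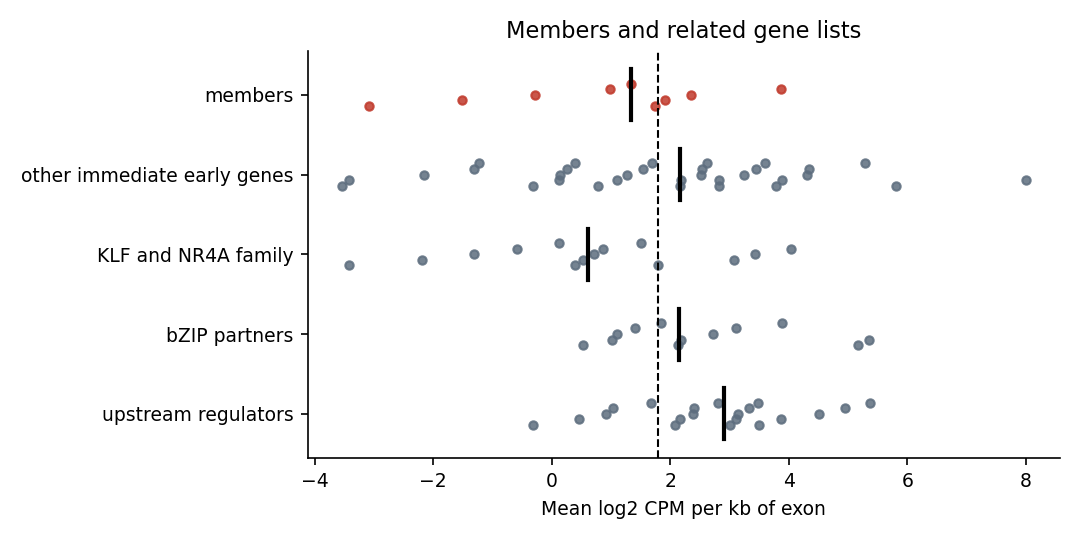
Mean log2 CPM per kb of exon for the 9 members (red) and the genes of 4 related lists with a row in the tables (grey), 1 point per gene; thick bars are list medians and the dashed line is the median of all genes, 1.79. The medians are 1.33 for the members, 2.17 for other immediate early genes, 0.62 for KLF and NR4A genes, 2.16 for leucine zipper partners and 2.91 for upstream regulators. Some genes stand in more than 1 list.

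The labelled tissue was checked against markers. Of 10 corneal endothelial genes 9 lay above the median of all genes, with a median of 10.3 log2 CPM and *Slc4a11* at 10.7, and *Car2* was the exception with 0.74. The *Slc4a11* mean pools KO and WT libraries, so the deletion cannot be checked from it. All 4 genes listed as stromal were high as well, from 8.42 (*Kera*) to 11.9 log2 CPM (*Dcn*), and their part in the member levels was not tested. Of these, *Aldh3a1* (10.1 log2 CPM) is not particular to keratocytes, since the corneal epithelium makes it too. In bulk RNA, fewer cells of a type and less RNA per cell cannot be told apart. The 5 genes listed as epithelial, without *Aldh3a1*, ran from -0.01 to 5.12 log2 CPM. Pigment cell genes ran from -0.58 to 3.26, nerve and glia genes from -0.51 to 1.77, and leukocyte genes from 0.94 to 4.30. Of 3 lens genes *Cryab* had 7.85 and the others at most 0.73 log2 CPM. Of 3 muscle genes *Myh11* had 7.69, *Acta2* 5.64, and *Des* no row. The 2 haemoglobin genes looked for have no row. Immediate early genes can be induced in most cell types, and the part of each type in the member levels was not tested.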

How the data were processed

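RNAseq was performed by the authors on total RNA from Descemet membranes with a stranded low-input kit and paired-end reads. Per the submitters' notes and methods, HISAT2 was the aligner and GRCm38 the genome. Library sizes were adjusted by TMM, values were expressed as CPM, and limma with its voom weights gave the comparisons of genotype and sex. Versions, the counter, the gene annotation and the rule that left genes out of the tables are not given in the sources used here. The paper names a CPM above 1 among its thresholds for calling differential expression. The authors deposited 3 tables of 15838 genes, whose mean level is on the log2 scale (log2 CPM averaged over the libraries) and is equal in the 3 tables. Their other value columns hold the authors' own comparisons (fold change, moderated t, p-value, adjusted p-value and B for genotype, sex and interaction) and were not used. Columns of single libraries used here number 0, so the depth per library is unknown, precision could not be estimated and no test was made.

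Exonic length is the union of the annotated exons in GENCODE M21 (GRCm38), found for 15824 genes, and the level per kb is the log2 mean minus the log2 length in kb. A percentile is the percent of genes with a lower mean. Promoters are RefSeq sequences of GRCm38.p6, and the motif scan was tested on simulated data. The pentamer ATTTA, also where it stood alone, and the longer element TTATTTATT were counted after the stop codon of the longest coding transcript. Whether a pentamer is part of a working AU-rich element was not tested. Computations used Python 3.11.15 with pandas 2.3.3 and numpy 2.4.6. The members and lists were chosen with earlier results of these data known. The genes named are the members, *Slc4a11*, the markers, and the 3 highest and 2 lowest of each list by mean level; others are said to be named after their values were seen, and 2 genes that the rule would name are not reported here. Alternatives were the set of genes ranked, the length used and the promoter window.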

Additional observations from a re-analysis of the deposited data

How the results depend on the processing

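No paired analysis was possible because the tables hold no value of a single library, and for the same reason no library could be left out in turn. The median percentile of the members by mean level, 42.4 among all genes, was 38.0 among genes with a mean of at least 1 CPM (8 members), 4.19 among genes of at least 10 CPM (4 members) and 30.9 among protein coding genes; each of these rankings holds fewer genes, and the first 2 also fewer members. Per kb it was 42.2. For the other immediate early genes it was 47.3 among all genes and 44.0 at 1 CPM or more. The order per kb was the same for all 9 members with the length of the longest transcript, although the ratio of *Jun* to *Fosb* per kb went from 124 to 74.9, and 6 of 9 members kept their place with no correction for length. With only the bases before the start scanned, the TATA box was in 1 of the 8 windows, since that of *Junb* lies after the RefSeq start, and the counts of the CRE, its core, AP-1, CArG, GC box and EGR motifs did not change. The 8 windows with the CRE core or the CRE variant rest on a motif chosen after seeing the data. The levels are means without replicate error, and small differences between members cannot be read as real.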
